A study of Mus musculus with 5 samples.

Results

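The tumor suppressor p53 and 9 genes that it activates directly were followed across colon tumors of mice with and without human Siglec-XII. The 10 genes were Trp53, which encodes p53, and Cdkn1a, Mdm2, Bax, Bbc3, Ccng1, Phlda3, Sesn2, Zmat3 and Trp53inp1. They were found by gene symbol in a table of 52143 mouse genes, where each symbol had a single entry. A gene was tested if it reached 1 TPM, a unit of abundance corrected for transcript length and relative to all RNA of the sample, in at least 2 samples. This left 10338 genes, among them 9 of the 10. Sesn2 was below 1 TPM in all 5 samples and was described without a test.

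The p53 protein is a transcription factor that accumulates when DNA is damaged or growth signals are excessive. It binds response elements near its target genes, whose products stop the cell cycle, trigger apoptosis or restrain growth signaling. One target, Mdm2, marks p53 for degradation and closes a feedback loop, so the amount of p53 protein is set largely after transcription and Trp53 mRNA does not measure it. In the colon, p53 is best known as the gene lost late in the passage from adenoma to carcinoma, and the alkylating carcinogen used here damages the DNA of crypt cells.

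The tumors came from female mice that were 8 weeks old at the start and were sampled on day 87. Both groups carried Villin1-Cre-ERT, a Cre recombinase that tamoxifen activates and that the villin promoter restricts to intestinal epithelium, and both received tamoxifen for 5 days, azoxymethane (AOM) at 10 mg/kg and repeated courses of 2.0% dextran sodium sulfate (DSS). The Control group (2 samples, replicates 1 and 4) consisted of littermates with only the recombinase. The SIGLEC12 group (3 samples, replicates 2, 3 and 4) was heterozygous for a knock-in of human SIGLEC12 at ROSA26, driven by the CAG promoter behind a floxed stop. Siglec-XII is a membrane receptor of the Siglec family. The transgene itself was not analysed here, so the label rests on genotype. In bulk tumor RNA, a change in the number of cells of a type cannot be told apart from a change in RNA per cell.

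Control replicate 1 stood apart from the other samples. It had 7947 genes at 1 TPM or more, against 9532 to 10090 elsewhere. The 12 columnar epithelium markers summed to 449 TPM in it and to between 1335 and 2131 TPM in the other 4 samples, and 11 of the 12 were at their lowest there. The 10 squamous epithelium markers summed to 3088 TPM in it and to between 489 and 1196 TPM elsewhere, and 6 of the 10 were at their highest there. Epcam, an adhesion molecule of the columnar list, was at 29.3 TPM in Control replicate 1 and between 78.4 and 132 TPM in the other 4 samples. Markers of other cell types also differed between the groups. The 8 fibroblast markers summed to 10.5 and 11.4 TPM in Control and to 63.2, 19.4 and 27.0 TPM in SIGLEC12, and the 6 endothelial markers to 1.12 and 1.14 TPM against 5.16, 2.26 and 3.07 TPM. B and plasma cell markers summed to between 0.147 and 0.301 TPM in Control and between 0.740 and 1.50 TPM in SIGLEC12, and T cell markers to between 0.415 and 0.538 TPM and between 0.629 and 1.19 TPM. As deposited, these 4 sums were higher in SIGLEC12 without overlap of the groups, as were 54.1% of all tested genes. All 6 T cell markers, 5 of the 6 B and plasma cell markers and 4 of the 6 endothelial markers were below 1 TPM in every sample. Sums of smooth muscle markers (51.1 to 129 TPM), myeloid markers (7.63 to 31.1 TPM) and neutrophil markers (21.7 to 54.0 TPM) overlapped. No marker of any list was at 0 in all samples, and the part of these cells in the results was not tested. Protein-coding genes took 5.70% and 6.73% of the TPM total in Control and between 8.75% and 9.72% in SIGLEC12. Most genes also lay higher in SIGLEC12 as deposited, with a median log2 fold change of 0.38 over the tested genes. After the samples were brought to one common protein-coding total (rescaling) that median was 0.0085. Rescaled values, and values without Control replicate 1, are given beside the results that they move, except for the marker sums. Rescaling multiplied Control replicates 1 and 4 by 1.40 and 1.18 and the SIGLEC12 samples by between 0.818 and 0.908. With these factors the T cell sums of the groups overlap.

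Matches to the p53 response element were sought in the promoter windows that RefSeq sequences give for these genes (GRCm38.p6, from 250 bases before to 50 after a transcription start). Windows were found for 8 of the 10 genes, 11 windows in all, and none for Zmat3 and Trp53inp1. They were searched for 2 copies of the 10-base p53 unit, set 0 to 13 bases apart, with the central C and G of each unit required and mismatches counted at the other positions. The unit is a palindrome, so the search covers both strands. The 3 best matches are shown with up to 40 bases on either side, because they are the rarest among the promoters of all genes. Capitals mark the matched units, and each sequence reads along the gene's own strand.
Cdkn1a, chr17:29090866-29090977, plus strand: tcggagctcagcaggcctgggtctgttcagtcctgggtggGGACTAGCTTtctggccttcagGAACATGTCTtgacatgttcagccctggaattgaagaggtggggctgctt
Ccng1, chr11:40755422-40755521, minus strand: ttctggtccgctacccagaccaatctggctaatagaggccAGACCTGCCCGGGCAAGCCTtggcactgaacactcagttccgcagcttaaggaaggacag
Bax, chr7:45467039-45467139, minus strand: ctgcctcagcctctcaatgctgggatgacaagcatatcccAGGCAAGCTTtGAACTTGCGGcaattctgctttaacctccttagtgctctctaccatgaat

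The upstream Cdkn1a window held a pair with 0 mismatches and a spacer of 12 bases, as did 24 of all 32851 windows (0.0731%). The second unit of that pair is followed directly by a further one, and these 2 adjoining units together have 1 mismatch. Adjoining pairs with at most 1 mismatch were in 22 of all windows (0.0670%). One of these was the Ccng1 window, whose pair began at position -195 from the start, and 206 windows (0.627%) had at most 1 mismatch at any spacing. The Bax window had 2 mismatches and a spacer of 1 base, and 4.09% of windows matched at least as well. The best windows of Trp53 and Bbc3 had 3 mismatches, at which 15.6% of windows match, and those of Mdm2, Phlda3 and Sesn2 had 4, 5 and 6, at which 40.4%, 68.7% and 86.7% do. The other Cdkn1a window had 5 mismatches, at which 68.7% of windows match. Cdkn1a and Bbc3 had more than 1 window each, while the shares are per window. These matches describe the letters in the window only and do not show binding.

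Levels on the log2(TPM + 1) scale were then compared gene by gene, starting with p53 and its inhibitor. Trp53 (ENSMUSG00000059552, GRCm38 chromosome 11, 69580359 to 69591873, plus strand) stood at 2.47 and 2.52 in Control replicates 1 and 4 and at 2.74, 2.85 and 2.77 in SIGLEC12 replicates 2, 3 and 4. All 3 SIGLEC12 samples were above both Control samples. The log2 difference was 0.29 ± 0.16 (SE; adjusted p = 0.232, limma), below the median of all genes, and after rescaling its direction turned to -0.18 (SE 0.15). Mdm2 (ENSMUSG00000020184, chromosome 10, 117688875 to 117710758, minus strand), the ubiquitin ligase that p53 induces against itself, stood at 1.67 and 1.99 in Control and at 2.11, 2.03 and 2.29 in SIGLEC12. The groups did not overlap, although SIGLEC12 replicate 3 was only slightly above Control replicate 4. The log2 difference of Mdm2 was 0.31 ± 0.18 (SE; adjusted p = 0.238, limma) as deposited and turned to -0.10 (SE 0.13) after rescaling. With Control replicate 1 left out, the deposited values gave 0.15 for Mdm2 and 0.27 for Trp53. Neither gene passed the test.

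**Figure D1:**
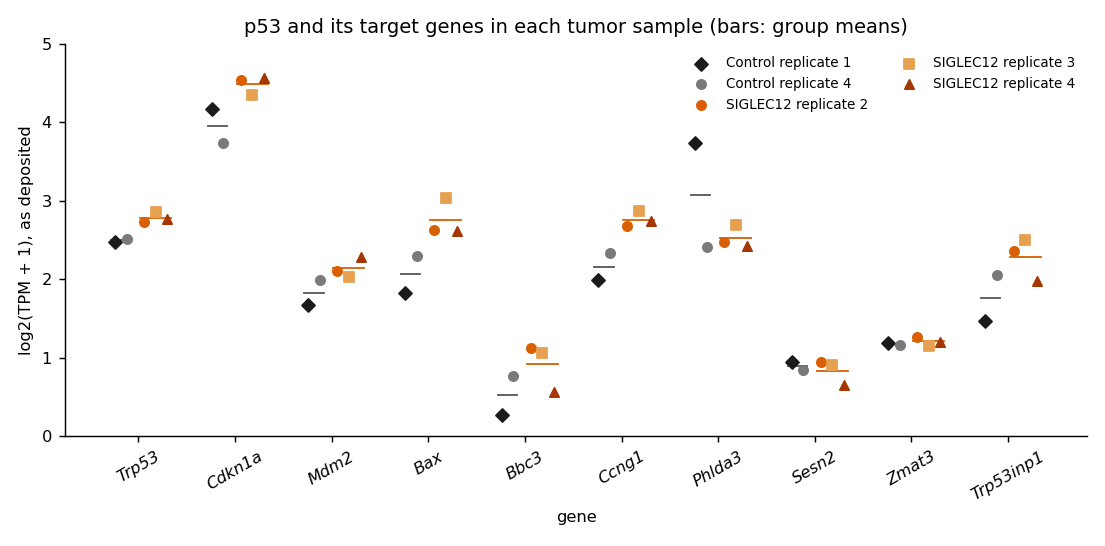
Level of Trp53 and its 9 targets in each tumor sample, as log2(TPM + 1) on the vertical axis, with a symbol per sample and a bar at each group mean. The SIGLEC12 symbols lie above both Control symbols for Trp53, Cdkn1a, Mdm2, Bax and Ccng1, and Control replicate 1 stands alone at 3.74 for Phlda3.

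Of the cell cycle targets, Cdkn1a (ENSMUSG00000023067, chromosome 17, 29090976 to 29100727, plus strand) encodes p21, an inhibitor of cyclin-dependent kinases that halts the cycle after DNA damage. It stood at 4.17 and 3.74 in Control and at 4.55, 4.34 and 4.57 in SIGLEC12. Every SIGLEC12 sample was higher than both Control samples, and the log2 difference was 0.53 ± 0.23 (SE; adjusted p = 0.155, limma). In TPM, this was 14.7 ± 3.25 (SD, n = 2) against 21.5 ± 1.86 (SD, n = 3), a ratio of 1.46. After rescaling the log2 difference was 0.0049 (SE 0.25), with all 3 SIGLEC12 samples between the 2 Control samples. The Control samples weighed in opposite ways: as deposited, the change was 0.74 without replicate 1 and 0.32 without replicate 4, and after rescaling it was 0.34 (SE 0.21) without replicate 1. Ccng1 (ENSMUSG00000020326, chromosome 11, 40748552 to 40755311, minus strand) encodes cyclin G1, which acts back on Mdm2 through a phosphatase. It stood at 1.99 and 2.34 in Control and at 2.67, 2.87 and 2.74 in SIGLEC12, again without overlap. The log2 difference was 0.60 ± 0.19 (SE; under 0.05 before adjustment, adjusted p = 0.102, limma), and 0.15 (SE 0.15) after rescaling, where SIGLEC12 replicate 4 lay between the Control samples. Without Control replicate 1 it was 0.43 (adjusted p = 0.348, limma).

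Of the apoptosis targets, Bax (ENSMUSG00000003873, chromosome 7, 45461697 to 45466898, minus strand) encodes the protein that opens pores in the outer mitochondrial membrane. It had the largest positive difference of the tested members. Bax stood at 1.83 and 2.30 in Control and at 2.63, 3.04 and 2.61 in SIGLEC12. The groups did not overlap, and SIGLEC12 replicate 3 was the highest sample. The log2 difference was 0.70 ± 0.23 (SE; under 0.05 before adjustment, adjusted p = 0.108, limma), 0.26 (SE 0.21) after rescaling and 0.46 without Control replicate 1 (adjusted p = 0.388, limma). Bbc3 (ENSMUSG00000002083, chromosome 7, 16308393 to 16318205, plus strand) encodes PUMA, a BH3-only protein that releases Bax from restraint. It stood at 0.27 and 0.77 in Control and at 1.12, 1.06 and 0.57 in SIGLEC12. The groups overlapped at this low level, and Bbc3 entered the test only through the 2 higher SIGLEC12 samples. The log2 difference was 0.39 ± 0.26 (SE; adjusted p = 0.292, limma), 0.21 after rescaling, 0.14 without Control replicate 1 and -0.039 with both changes. Trp53inp1 (ENSMUSG00000028211, chromosome 4, 11156431 to 11174379, plus strand), a nuclear partner of p53 in apoptosis and autophagy, stood at 1.47 and 2.06 in Control and at 2.37, 2.50 and 1.97 in SIGLEC12. SIGLEC12 replicate 4 lay between the Control samples. The log2 difference was 0.51 ± 0.25 (SE; adjusted p = 0.186, limma), 0.11 after rescaling and 0.22 without Control replicate 1.

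Zmat3 and Sesn2 differed little between the groups as deposited. Zmat3 (ENSMUSG00000027663, chromosome 3, 32334792 to 32366014, minus strand), a zinc finger protein that binds RNA, stood at 1.18 and 1.16 in Control and at 1.27, 1.15 and 1.20 in SIGLEC12. The log2 difference of 0.035 ± 0.15 (SE; adjusted p = 0.867, limma) was smaller than that of most genes, and after rescaling it was -0.28 ± 0.13 (SE; adjusted p = 0.466, limma) with all 3 SIGLEC12 samples below both Control samples. Sesn2 (ENSMUSG00000028893, chromosome 4, 132492032 to 132510501, minus strand) encodes sestrin 2, a stress protein that inhibits mTORC1. It stood at 0.95 and 0.85 in Control and at 0.95, 0.91 and 0.66 in SIGLEC12, and the groups overlapped. The difference in means was -0.060, and -0.32 after rescaling, where the groups did not overlap.

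Phlda3 was the member whose pattern rested on a single sample. The gene (ENSMUSG00000041801, chromosome 1, 135766119 to 135769136, plus strand) encodes a pleckstrin homology protein that competes with Akt for the membrane. Its 2 Control values were 3.74 (replicate 1) and 2.42 (replicate 4), against 2.48, 2.70 and 2.42 in SIGLEC12. In TPM, Control replicate 1 was at 12.3 and the other 4 samples were between 4.33 and 5.48. The log2 difference of -0.54 ± 0.38 (SE; adjusted p = 0.312, limma) was smaller than the SD of 0.93 between the Control samples. It was -1.03 ± 0.45 (SE; adjusted p = 0.465, limma) after rescaling. Without Control replicate 1 the direction turned to 0.12 as deposited (SE 0.21) and was -0.24 (SE 0.21) after rescaling. Without Control replicate 4, Phlda3 passed the threshold at -1.20 (adjusted p = 0.0414, limma), in a fit where Control replicate 1 was the only sample of its group, was assumed to vary like the SIGLEC12 samples, and 10.2% of all genes passed.

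The 2 most abundant genes of a list of other p53 targets, and Trp63, were also highest in Control replicate 1. Of the 40 genes of that list, 7 were highest in this sample and 26 were lowest there. This sample had the fewest genes at 1 TPM or more and the lowest protein-coding share. The same counts over all genes were not made. Sfn, which encodes the cell cycle inhibitor 14-3-3 sigma, stood at 7.25 in Control replicate 1 and between 4.78 and 5.55 in the other 4 samples. Perp, a component of desmosomes and a target of both p53 and p63, stood at 7.67 and between 5.69 and 6.36. Trp63, which encodes p63, the relative of p53 that maintains basal cells of stratified epithelium, stood at 3.80 and 2.85 in the Control samples and at 2.67, 2.29 and 2.20 in the SIGLEC12 samples. The squamous keratins Krt5 and Krt14 were at 595 and 1144 TPM in Control replicate 1, and at or below 142 and 199 TPM elsewhere. Krt6a, Sprr1a and Dsg3 of the squamous list were highest there too, whereas Krt13 and Krtdap were not. Krt4, at 18.8 TPM against 56.6 to 174 TPM, and Lor, at 0.160 TPM against 1.04 to 3.65 TPM, were lowest there. The part of squamous tissue in the Phlda3 values was not tested.

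**Figure D2:**
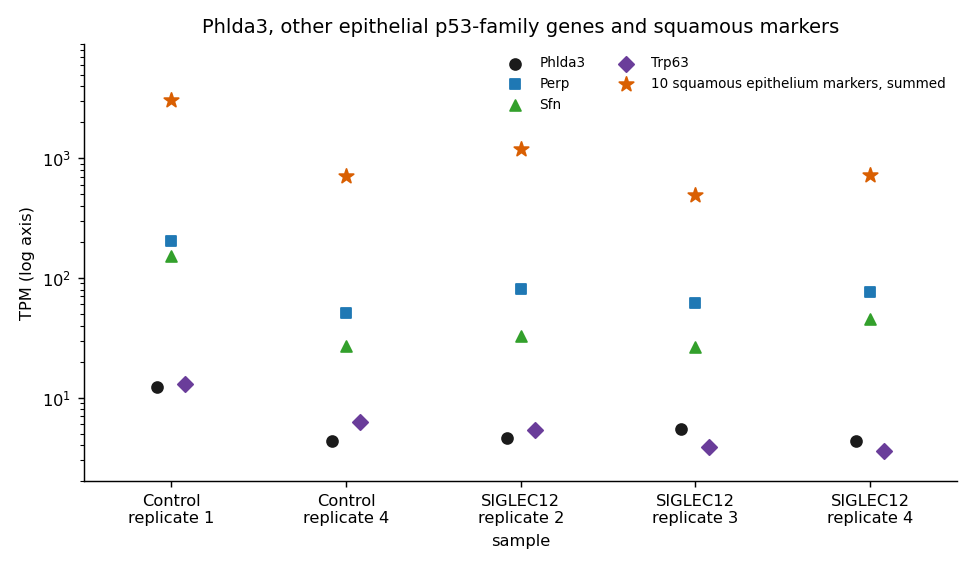
TPM on a log axis of Phlda3, Perp, Sfn, Trp63 and the sum of 10 squamous epithelium markers in each of the 5 samples. All 5 series are highest in Control replicate 1, where Phlda3 was at 12.3 TPM and the markers summed to 3088 TPM.

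The members were then read against the background of all tested genes. With the threshold at an adjusted p of 0.05 (limma) and a 2-fold difference, 0 members were called, as were 0% of all genes. At an unadjusted p under 0.05, Bax and Ccng1 were higher in SIGLEC12, 2 of the 9 tested members, against 33.4% of all tested genes, and 0 were lower, against 0.909%. The 2 became 0 without SIGLEC12 replicate 3, against 22.3% of all genes in that fit, and 1, Cdkn1a, without Control replicate 1, against 13.9%. On average 8 of the 9 were higher, against 87.2% of all genes. The groups did not overlap, with SIGLEC12 higher, in 5 of the 9, namely Trp53, Cdkn1a, Mdm2, Bax and Ccng1, against 54.1% of all genes. For each of these 5 the exact two-sided permutation p was 0.1, the smallest that 5 samples allow. The median log2 fold change of the 9 was 0.39, the value of Bbc3, beside 0.38 over all genes. Without Bbc3, which passed the filter through SIGLEC12 alone, 7 of 8 were higher on average, 2 had an unadjusted p under 0.05, 5 did not overlap and the median was 0.41.

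After rescaling, 5 of the 9 were higher on average, against 51.1% of all genes. The median log2 fold change of the 9 was 0.0049. No member had an unadjusted p under 0.05, against 4.45% of all genes higher and 6.31% lower. None was higher without overlap of the groups, against 15.6% of genes, and Phlda3 and Zmat3 were lower without overlap, against 16.8%. Placed among all genes by signed log2 fold change, Bax stood at percentile 81.5 as deposited and 79.0 after rescaling, and Ccng1 at 74.0 and 68.7. Phlda3 stood at 2.80 and 2.07. Trp53 stood at 38.4 and 28.1, so its mRNA was on the lower side of the shift shared by most genes. Cdkn1a stood above the middle of all genes as deposited and at percentile 49.6 after rescaling.

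**Figure D3:**
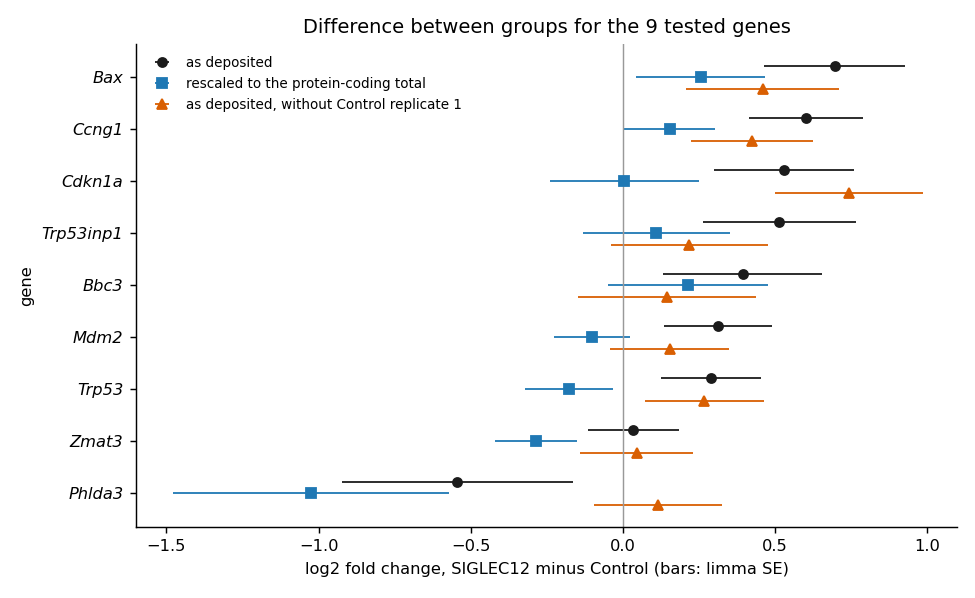
Log2 fold change (SIGLEC12 minus Control, horizontal axis) of the 9 tested genes as deposited, when rescaled, and without Control replicate 1, with bars for the limma SE. As deposited, 8 of the 9 points lie above 0, the rescaled points lie on both sides of it, and Phlda3 crosses 0 when Control replicate 1 is left out.

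Ratios to Trp53 within a sample do not depend on how the sample was scaled, so they were used to compare the targets with p53 mRNA itself. Cdkn1a was 3.73 and 2.62 times the TPM of Trp53 in Control replicates 1 and 4, and 3.95, 3.11 and 3.88 times in SIGLEC12, with overlap of the groups. Mdm2 was at 0.480 and 0.627 times in Control and at 0.587, 0.497 and 0.665 times in SIGLEC12, also with overlap. The ratio between p53 and its inhibitor was thus spread as widely within groups as between them. Bax was at 0.560 and 0.829 times the TPM of Trp53 in Control and at 0.917, 1.16 and 0.875 times in SIGLEC12. Ccng1 was at 0.650 and 0.856 times in Control and at 0.950, 1.02 and 0.973 times in SIGLEC12. These 2 ratios were higher in every SIGLEC12 sample than in both Control samples, with Control replicate 4 close below. Of all tested genes, 26.7% had a ratio to Trp53 that was higher without overlap and 5.83% one that was lower. The log2 ratio was higher in SIGLEC12 by 0.52 for Bax and by 0.39 for Ccng1, and by 0.24 and 0.19 against Control replicate 4 alone. The ratios of Phlda3, Sesn2 and Zmat3 were lower in every SIGLEC12 sample, by log2 differences of -0.96, -0.50 and -0.28, and those of Bbc3 and Trp53inp1 overlapped. Phlda3 was 2.70 and 0.915 times Trp53 in Control and 0.807, 0.881 and 0.744 times in SIGLEC12, so that the difference was -0.18 against Control replicate 4 alone, and those of Sesn2 and Zmat3 were -0.36 and -0.24. The 9 ratios are given as descriptions, without a test.

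**Figure D4:**
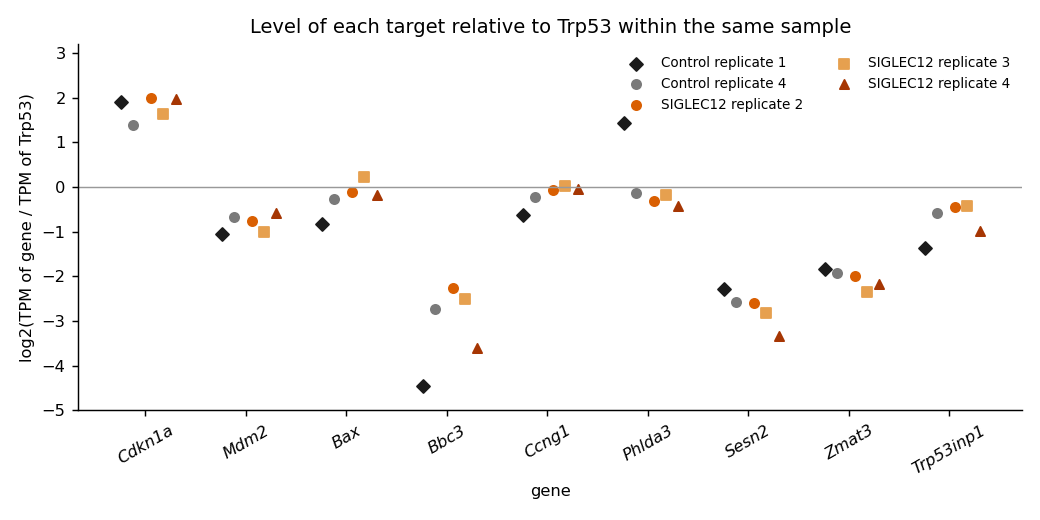
Log2 ratio of the TPM of each target to the TPM of Trp53 in the same sample, with a symbol per sample and a line where both are equal. Bax and Ccng1 lie near the line in SIGLEC12 and below it in Control replicate 1, while Cdkn1a lies above it in all 5 samples.

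Levels between members were compared in TPM, which accounts for transcript length. Cdkn1a was the most abundant member in all 5 samples, with a mean of 18.7 TPM, and its lowest sample (12.4 TPM) was just above the highest Phlda3 sample (12.3 TPM). It made up from 32.3% to 42.9% of the summed TPM of the 10 genes. Phlda3, Trp53, Ccng1 and Bax followed with means of 6.21, 5.40, 4.88 and 4.80 TPM, and the ranges of neighbours in this order overlapped. Phlda3 held its place through Control replicate 1, since Trp53 was the higher of the pair in the other 4 samples. Trp53inp1 and Mdm2 followed with overlapping ranges and means of 3.33 and 3.09 TPM. Zmat3 (1.29 TPM) was below Mdm2 and above Sesn2 (0.821 TPM) in every sample, and the ranges of Sesn2 and Bbc3 (0.731 TPM) overlapped. Among all tested genes, Cdkn1a was at percentile 92.7 of mean TPM and Trp53 at 73.1. The 10 genes together summed to 45.7 and 38.3 TPM in Control and to 54.2, 55.5 and 52.8 TPM in SIGLEC12. After rescaling the sums were 63.8 and 45.2 TPM against 48.7, 50.4 and 43.2 TPM, so the order of the groups did not hold.

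A wider list of 40 other p53 targets was described beside the members. Of these, 25 were tested and 15 were not. As deposited, 17 of the 25 were higher on average, against 87.2% of all genes. At an unadjusted p under 0.05, 9 were higher, against 33.4% of all genes, and 0 were lower, against 0.909%. Without 2 genes that passed the filter through SIGLEC12 alone, 8 of 23 were higher at that p. After rescaling 0 of the 23 were, against 4.45% of all genes. No gene of the list passed the adjusted threshold, and its median log2 fold change was 0.27, below that of all genes. After rescaling, 1 of the 25 was higher and 1 (Aen) lower at an unadjusted p under 0.05, against 4.45% and 6.31% of all genes. The median was then -0.064. Without Control replicate 1, as deposited, 3 of the 25 were higher at that p, against 13.9% of all genes, and without SIGLEC12 replicate 2 there were 4, against 20.5%. Among the largest differences were those of Cd82 (0.99, SE 0.26), a tetraspanin that restrains metastasis, Dcxr (0.99, SE 0.34), a carbonyl reductase, and Rps27l (0.94, SE 0.26), a ribosomal protein paralog. As deposited the groups did not overlap in any of these 3, as in 54.1% of all genes with SIGLEC12 higher. Their adjusted p (limma) lay between 0.0974 and 0.111. After rescaling the groups overlapped in Dcxr, and the changes were 0.50, 0.54 and 0.41. The most negative were those of Sfn (-0.89, SE 0.68), Perp (-0.48, SE 0.56), the nuclease gene Aen (-0.25, SE 0.19) and the adenylate kinase gene Ak1 (-0.16, SE 0.30), all with overlapping groups. After rescaling they were -1.44, -1.02, -0.61 and -0.50, Aen without overlap. Sfn, Perp and Ak1 turned to 0.32, 0.51 and 0.33, as deposited, without Control replicate 1. Perp, Sfn and Rps27l were also the most abundant of the list, with means of 94.4, 56.6 and 28.1 TPM, each above Cdkn1a.

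Of 18 regulators and relatives of p53, 16 were tested. As deposited, 5 were higher and 1 was lower at an unadjusted p under 0.05 (limma), against 33.4% and 0.909% of all genes. Their median log2 fold change was 0.21, below the 0.38 of all genes. The 14 that reached 1 TPM in a Control sample gave the same counts and a median of 0.16. After rescaling, 0 of the 16 were higher and 4 lower at that p, against 4.45% and 6.31% of all genes. Without Control replicate 1, as deposited, the median was 0.029, against 0.26 over all genes. Rpl5 differed most, by 0.98 ± 0.23 (SE; adjusted p = 0.0974, limma), and Rpl11 was the most abundant, with a change of 0.80 ± 0.27 (SE; adjusted p = 0.108, limma). Both are ribosomal proteins that bind Mdm2 and shield p53. They were 0.47 and 0.25 after rescaling. Ribosomal protein genes, Rps27l included, have near-identical pseudogene copies that can share their reads, so their values are uncertain. Trp63 had the lowest change, -0.94 ± 0.32 (SE; adjusted p = 0.109, limma), without overlap of the groups, which was -1.42 after rescaling and -0.47 without Control replicate 1. Mdm4, the partner of Mdm2 that masks the p53 activation domain, was at 1.72 and 2.51 in Control and at 1.79, 1.70 and 2.16 in SIGLEC12, a change of -0.23 ± 0.28 (SE; adjusted p = 0.536, limma) with overlap as deposited. After rescaling it was -0.65 (adjusted p = 0.457, limma) and without Control replicate 1 -0.62 (adjusted p = 0.317, limma), both without overlap. Cdkn2a, whose Arf product inhibits Mdm2, was at 0.17 and 0.84 in Control and at 1.01, 1.27 and 0.32 in SIGLEC12, a change of 0.37 ± 0.35 (SE; adjusted p = 0.443, limma), also with overlap. It was 0.21 after rescaling and 0.032 without Control replicate 1, and it passed the filter through 2 SIGLEC12 samples alone.

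Genes on either side of the main targets were given for comparison. The first were cell cycle genes that p21 represses through the DREAM complex. Of 16 such genes 15 were tested, and Bub1 among them passed the filter through SIGLEC12 samples alone. As deposited, all 15 were higher on average, against 87.2% of all genes, and 11 had an unadjusted p under 0.05, against 33.4%. Without Bub1, 14 of 14 were higher on average and 11 at that p. The median log2 fold change of the 15 was 0.67, and 0.24 after rescaling. After rescaling 13 were higher on average, against 51.1% of all genes, and 1 had an unadjusted p under 0.05, against 4.45%. Without Control replicate 1, as deposited, 14 were higher on average, against 79.4% of all genes. The median was 0.42 in that fit, against 0.26 over all genes. With both changes, 12 were higher on average, against 43.4% of all genes, and the median was 0.064, against -0.048. Of the 16, 15 were at their lowest in Control replicate 1, the sample with the fewest detected genes, and the exception was Mki67. Ccnb2, which encodes cyclin B2, differed most (0.89 ± 0.23, SE; adjusted p = 0.0974, limma), and was 0.45 after rescaling. Top2a, the DNA topoisomerase and the most abundant, was 0.65 higher (SE 0.24) without overlap, and 0.16 after rescaling with overlap, or 0.41 without Control replicate 1. Mki67, the proliferation marker, was 0.20 higher (SE 0.31), turning to -0.27 after rescaling and to -0.015 without Control replicate 1. Of 12 other BCL2 family genes 8 were tested, with 3 higher at an unadjusted p under 0.05, against 33.4% of all genes. Of the 8, 3 passed the filter through SIGLEC12 samples alone. The other 5 had 3 higher at that p and a median of 0.67. The median of all 8 was 0.52, and 0.18 after rescaling, where 1 was higher at that p, against 4.45% of all genes. Without Control replicate 1, as deposited, the median of the 8 was 0.37, against 0.26 over all genes. Bok, a relative of Bax, led them (1.22 ± 0.35, SE; adjusted p = 0.0976, limma), and stood at 0.64 and 1.61 in the Control samples and at 1.91, 2.52 and 2.63 in the SIGLEC12 samples, and was 0.89 after rescaling and 0.74 without Control replicate 1. Mcl1, an inhibitor of apoptosis and the most abundant, was 0.53 higher (SE 0.34) and at -0.0006 after rescaling, or 0.087 without Control replicate 1. Bcl2l11, which encodes BIM and passed the filter through 2 SIGLEC12 samples alone, was 0.30 higher (SE 0.25), 0.090 after rescaling and 0.10 without Control replicate 1. Of 5 other inhibitors of cyclin-dependent kinases 3 were tested. All 3 were higher on average, against 87.2% of all genes, with a median of 0.49. At an unadjusted p under 0.05, 2 were higher, against 33.4% of all genes. Without the 1 gene that passed the filter through SIGLEC12 alone, 2 were left, with 1 higher at that p and a median of 0.61. Cdkn1b, which encodes p27, was 0.80 higher (SE 0.19, limma adjusted p = 0.0974) and 0.36 after rescaling, and Cdkn2b, which encodes p15, was 0.41 higher (SE 0.26) and -0.019 after rescaling. None of these 3 lists held a gene past the adjusted threshold.

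The profiles most like those of Trp53 and Cdkn1a were sought among 2727 protein-coding genes with a mean of at least 5 TPM, by the root mean square difference of centered log2 values over the 5 samples. The nearest to Trp53 were Cops6 (0.032), Rnf11 (0.045), Nap1l1 (0.048), Aamp (0.051) and St13 (0.051), and 49 genes lay within 0.1. The nearest to Cdkn1a were Rpl14 (0.062), Snrpd3 (0.077), Cltb (0.081), Ap2m1 (0.083) and Snx3 (0.083), and 13 lay within 0.1. The likeness is a description over 5 samples.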

How the data were processed

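RNA-Seq was performed by the authors on colon tumors, and the table they deposited holds log2(TPM + 1) per Ensembl mouse gene in 5 columns, each matched by name to a sample; 0 value columns were left unmatched. The submitters' processing notes name kallisto 0.45.0 and GRCm38, and the labels a stranded total RNA kit. The study's methods name another kallisto version, a human reference, an mRNA kit, and technical replicate libraries whose averaging is not stated. The annotation release, and whether a gene's value sums its transcripts, are not given in the sources used here. GENCODE M21 (GRCm38) held 98.45% of the gene identifiers and gave biotypes, transcript lengths and coordinates. TPM keeps no depth, so no counting interval is given.

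Genes were fitted with limma 3.58.1 in R 4.3.3 (lmFit, eBayes with trend) on log2(TPM + 1), with Benjamini-Hochberg adjustment over 10338 genes. The pseudocount of 1 understates changes of low genes. Errors in the text are limma SE or the SD between samples of a group. Named genes were the members and, per list, the gene of highest signed change, of lowest signed change and of highest level. For the other targets these were 4, 4 and 3 genes, and Mdm4 and Cdkn2a were always named. Epcam and single squamous markers were named after their values were seen. One gene that the rule names is not reported here. The members, lists and promoter search were chosen with earlier results of these data known. The fit was tested on simulated data. None of the members overlaps another gene with values above 0 except Sesn2 (Gm12981, 0.0560 TPM). Alternatives were 4 other scalings, another pseudocount, other filters, no variance trend and each sample left out.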

Additional observations from a re-analysis of the deposited data

How the results depend on the processing

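No paired analysis was possible because replicate 4 was the only number found in both groups. With 2 and 3 samples per group and no depth, small differences cannot be told from the spread. A lone Control sample was assumed to vary like the SIGLEC12 samples. Rescaling without Control replicate 1 was chosen after seeing the data. Over 14 alternatives the 9 tested members gave 122 log2 fold changes, of which 102 kept their direction and 20 turned. The other filters and the fit without a variance trend used the same log2 values. Their fold changes could not turn, and they count among those that kept their direction.

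Rescaling to the protein-coding total turned Trp53 to -0.18, Mdm2 to -0.10 and Zmat3 to -0.28. Median-ratio size factors gave -0.19, -0.11 and -0.29, quantile normalization -0.16, -0.056 and -0.24, and removal of the length trend -0.27, -0.10 and -0.12. Cdkn1a turned to -0.0062 under size factors and to -0.12 with the length trend removed. Rescaling without Control replicate 1 gave -0.10 for Trp53, -0.18 for Mdm2, -0.20 for Zmat3, -0.039 for Bbc3 and -0.12 for Trp53inp1. The planned sum over repeated symbols was not run, as 0 members had repeated entries. These scalings remove the shift common to all genes. In leave-one-out fits Phlda3 lay between -1.20, with Control replicate 4 omitted, and 0.12, with the other Control sample omitted.

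The median of the tested members was 0.39, and 0.0049, -0.0062, 0.0011, -0.097 and -0.096 under these 5 scalings in the same order. Members higher at an unadjusted p under 0.05 numbered 2, and 0 under each of the 5, where 4.45%, 4.72%, 5.90%, 4.25% and 1.32% of all genes were, and in leave-one-out fits 0 (without SIGLEC12 replicate 3) to 3, with 1, Cdkn1a, without Control replicate 1, against 13.9% to 42.7% of all genes. In the leave-one-out fits that kept both Control samples, 0 members were lower at that p and 0 passed the adjusted threshold. Without Control replicate 4, with a lone Control sample, Phlda3 was at -1.20. The other p53 targets higher at that p numbered 9, and 1, 1, 1, 2 and 0 under the 5 scalings, 5 with a filter of TPM at least 5, where fewer genes were tested, and in leave-one-out fits 3 (without Control replicate 1) to 10 (without the other Control sample). Where no cause is given, the cause was not tested.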
